A study of Mus musculus with 35 samples.

Results

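The genes described here encode 10 proteins that bind N6-methyladenosine (m6A) in RNA, the m6A readers, in the hippocampus of mice after intra-amygdala kainic acid (KA). They were chosen by name: Ythdf1, Ythdf2, Ythdf3, Ythdc1, Ythdc2, Igf2bp1, Igf2bp2, Igf2bp3, Hnrnpa2b1 and Fmr1, which are 10 of the 32544 genes in the count tables. All 10 symbols were found. No measured value entered the rule that chose them, although earlier results of these data were known. The mice were adult males of the C57BL/6JOlaHsd strain, a substrain known to lack the alpha-synuclein gene, with no engineered allele, that had a cannula placed over the amygdala before injection. KA-injected mice received KA in phosphate-buffered saline (PBS), which starts status epilepticus, followed by lorazepam to limit mortality, and control mice received PBS at the same site. Mice were killed and perfused after 24 hours, the acute stage, or after 2 weeks, when spontaneous seizures are established in this model. From each hippocampus total RNA was sequenced directly (input) or after immunoprecipitation with an antibody against m6A (m6A libraries), in both cases with a strand-preserving total RNA kit.

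m6A is written onto messenger RNA in the nucleus by a complex built around METTL3 and METTL14 and can be removed by FTO and ALKBH5. Reader proteins give the mark its effect. The YTHDF proteins act in the cytoplasm, where they are best known for directing marked transcripts to decay and have also been linked to translation. YTHDC1 is the nuclear YTH protein, with roles in splicing and export, and YTHDC2 is an RNA helicase known for its part in meiosis. The IGF2BP proteins stabilise bound transcripts and are most abundant in the embryo and in tumours. HNRNPA2B1 acts in RNA processing and in RNA transport along neuronal processes. FMR1 encodes FMRP, the protein missing in fragile X syndrome, which represses translation at synapses and is linked to seizures.

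In the mm10 build used for the files, Ythdf1 lies at chr2:180904377-180920936, Ythdf2 at chr4:132184916-132212256, Ythdf3 at chr3:16183148-16217037 and Ythdc1 at chr5:86803980-86836659. The Igf2bp family members lie on separate chromosomes, with Igf2bp1 at chr11:95957163-96005944, Igf2bp2 at chr16:22059009-22163299 and Igf2bp3 at chr6:49085218-49215469. Hnrnpa2b1 lies at chr6:51460434-51470048 and Fmr1 at chrX:68678536-68717963.

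GGACT is a form of the broader consensus that the writer complex prefers. Sequence is shown for the Ythdf family, and for the members with the highest and lowest m6A over input. In the canonical GENCODE vM39 transcripts, read in the sense strand only, Ythdf1 holds 1 GGACT, in its coding sequence 310 bases before the stop codon. The best match to the 30 bases around it in each of the other Ythdf transcripts is given below, from transcript positions 1668 (Ythdf1), 1796 (Ythdf2) and 1790 (Ythdf3), 5′ to 3′. Capitals mark GGACT, or the aligned bases in Ythdf3.
Ythdf1: gaagtcccctgtGGACTacggcaccagcgc
Ythdf2: gaaatctgctgtGGACTacaacacatgtgc
Ythdf3: gaagtctgttgtAGACTataatgcttatgc
The Ythdf2 window differs from that of Ythdf1 at 8 of 30 bases and the Ythdf3 window at 13 of 30. The single GGACT of Ythdf3 lies elsewhere in its coding sequence. Ythdc1, the reader with the highest m6A over input, and Igf2bp2 and Igf2bp3, those with the lowest, all hold GGACT. A window in the Ythdc1 3′ UTR (transcript positions 3740 to 3769), one in the Igf2bp2 coding sequence (1882 to 1911) and one in the Igf2bp3 coding sequence (600 to 629) read as follows, with GGACT in capitals.
Ythdc1: gtctaaactttgGGACTgaattttggcagt
Igf2bp2: atcttttcgactGGACTgtctgtgcttcct
Igf2bp3: ctacgcgttcgtGGACTgcccggacgaggg
Counted over whole transcripts, GGACT occurred 6 times in Ythdf2, 5 in Igf2bp2, 10 in Igf2bp1, 3 in Ythdc1, 3 in Ythdc2, 2 in Igf2bp3, 2 in Fmr1 and 1 each in Ythdf1, Ythdf3 and Hnrnpa2b1. Of the 16165 tested genes with such a transcript, 93.3% held GGACT at least once, with a median of 1.04 per kilobase. The readers ranged from 0.193 per kilobase in Ythdf3 to 1.17 in Igf2bp1. Across these genes, which are not independent replicates, GGACT per kilobase and the log2 fold change of m6A over input had a Spearman's rho of -0.08. The transcripts cover 78.6% of the genes tested, so the value describes those genes only. The median log2 fold change of m6A over input was -0.05 with GGACT within 200 bases of the stop codon and -0.03 without. What lies behind these values was not tested. Among the readers, GGACT was found within 200 bases of the stop codon only in Ythdf2, which held 2 there. Of all these transcripts, 39.0% held it there. These are counts of letters, not of methylated sites, which gene counts do not resolve.

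The 19 m6A libraries held 1652933 to 34564536 counts (median 15291875) and the 13 input libraries used held 3057578 to 12694434 (median 5498360). A further 3 inputs with 3171 to 34486 counts were left out of the main comparisons. Levels are given in CPM, counts scaled so that all libraries have the same total. The m6A groups held 3 PBS and 5 KA mice at 24 hours, and 5 PBS and 6 KA mice at 2 weeks, and the inputs held 1 PBS and 3 KA mice at 24 hours, and 3 PBS and 6 KA mice at 2 weeks. Both library types were available from 13 mice, 9 of them KA-injected. Across genes, 4 libraries stood apart from the rest. The m6A and input libraries of KA mouse 8 (24 hours) had a median correlation with the others of 0.742 and 0.753, PBS mouse 4 (2 weeks, m6A) 0.829 and KA mouse 6 (2 weeks, m6A) 0.827, while other m6A libraries reached 0.878 to 0.920 and other inputs 0.895 to 0.953. Ribosomal and mitochondrial genes made up 16.4% and 17.4% of counts in the libraries of KA mouse 8 and 17.5% in m6A KA mouse 6. All 5 hippocampal subfield markers (Prox1, Wfs1, Spink8, Fibcd1, C1ql2) were detected, with summed levels of 60.8 to 356 CPM in m6A and 60.3 to 225 CPM in input libraries. The lowest sum of each library type was that of KA mouse 8. The hippocampus is a mixture of cells, so fewer cells of a type and less RNA per cell cannot be told apart in any value below.

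**Figure D1:**
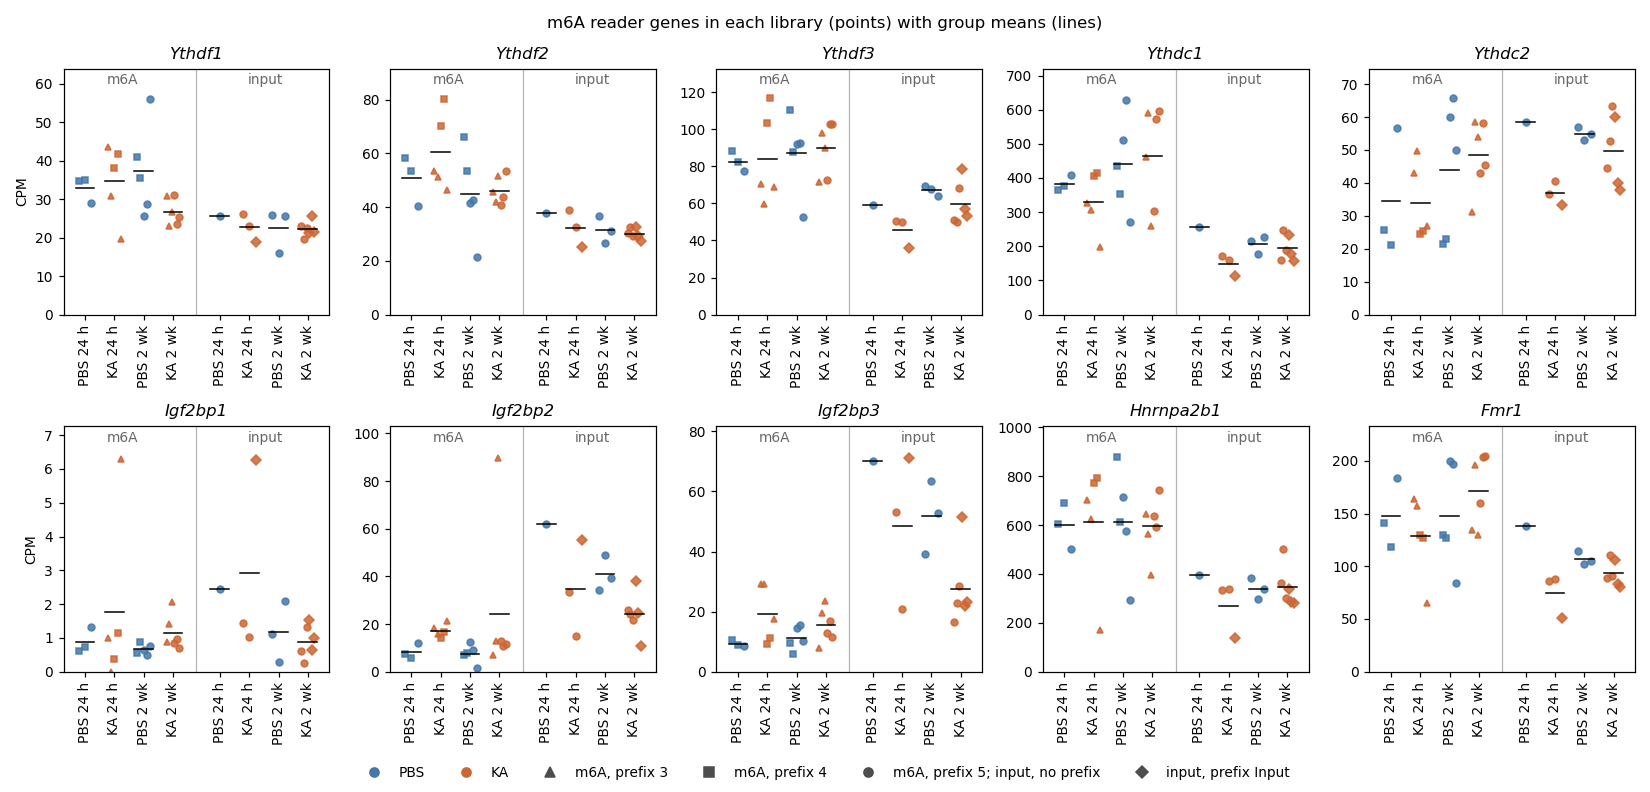
Level of each m6A reader gene in CPM (vertical axes, from 0) in every library used, by treatment, time and library type; points are libraries and lines are group means. In the m6A libraries at 24 hours 1 of 10 readers, Igf2bp2, did not overlap between KA and PBS. At 2 weeks Igf2bp2 had 1 m6A library at 89.5 CPM, and Igf2bp1 lay at or below 2.44 CPM outside KA mouse 8.

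Hnrnpa2b1 was the most abundant reader and Igf2bp1 the least. Because long transcripts gather more reads, levels were divided by the length of the canonical transcript before genes were compared. In the 13 input libraries the median per kilobase was 115 CPM for Hnrnpa2b1, 44.6 for Ythdc1, 20.3 for Fmr1 and 11.0 for Ythdf3. Each of the first 3 stood above the next gene in 13 of 13 inputs. Below them the order was loose. Igf2bp3 (9.02), Igf2bp2 (7.65), Ythdc2 (7.31) and Ythdf1 (7.06) overlapped in range, Ythdf3 was above Igf2bp3 in 9 of 13 inputs, and Ythdc2 was above Ythdf1 in only 5. Ythdf2 followed at 5.92 CPM per kilobase, and Igf2bp1 lay far below every other reader at 0.130. In the 19 m6A libraries the medians per kilobase were 213 CPM for Hnrnpa2b1, 103 for Ythdc1, 31.4 for Fmr1 and 17.1 for Ythdf3, again in the same order within 19 of 19 libraries. Ythdf2 (9.73) and Ythdf1 (9.46) could not be ordered, as Ythdf2 was the higher in 9 of 19. Igf2bp2 (2.73) and Igf2bp3 (2.65) lay below Ythdc2 (5.98) there, and Igf2bp1 was last at 0.0987.

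The first comparison set the m6A library of each mouse against its own input, which asks whether a reader's own transcripts took a larger share of the immunoprecipitated RNA than of total RNA. Ythdc1, Hnrnpa2b1, Fmr1 and Ythdf3 were higher in m6A than in input libraries, and Igf2bp2 and Igf2bp3 were lower. Ythdf1, Ythdf2, Ythdc2 and Igf2bp1 did not pass the test. Thus 6 of 10 readers passed, 4 higher and 2 lower, where 19.9% of the 20567 genes tested passed, 11% higher and 8.83% lower (edgeR quasi-likelihood test with mouse as a block, adjusted P below 0.05 over all genes). At an unadjusted P below 0.05 there were 8 readers and 32% of genes. The median log2 fold change was 0.22 over the 10 readers and -0.03 over all genes tested.

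Ythdc1 had the highest m6A over input of the readers. Its input levels were 258 CPM in the PBS mouse at 24 hours, 171, 161 and 112 CPM in KA mice at 24 hours, and 215, 177 and 228 CPM in PBS mice at 2 weeks, with 158 to 249 CPM (median 183) in KA mice at 2 weeks. In the m6A libraries it stood at 366, 376 and 408 CPM in PBS mice and 326, 307, 407, 415 and 199 CPM in KA mice at 24 hours. At 2 weeks these were 436, 354, 511, 629 and 270.4 CPM in PBS mice and 258.5 to 596 CPM (median 517) in KA mice. The m6A level exceeded the input level in 13 of 13 mice, by 1.19-fold in PBS mouse 4 to 3.56-fold in PBS mouse 3 at 2 weeks. In the fit this was a log2 fold change of 0.86 ± 0.12 (SE; edgeR adjusted P = 8.59e-05), which placed Ythdc1 at the 96.5th percentile of all genes tested.

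Hnrnpa2b1 and Fmr1 moved alike in this comparison. For Hnrnpa2b1 the m6A level was 170.05 to 878 CPM and the input level 135.8 to 503 CPM, with an m6A over input ratio of 0.867 to 2.60. For Fmr1 the m6A level was 65.4 to 205 CPM and the input level 51.1 to 139 CPM, with a ratio of 0.799 to 2.47. Both were higher in m6A than in input in 12 of 13 mice, and the exception was PBS mouse 4 in each case. Fitted log2 fold changes were 0.49 ± 0.10 for Hnrnpa2b1 (edgeR adjusted P = 0.00157) and 0.50 ± 0.10 for Fmr1 (edgeR adjusted P = 0.00156). Ythdc1, Hnrnpa2b1, Fmr1 and Igf2bp3 passed the test in each of the 13 fits that left out 1 mouse.

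Among the cytoplasmic YTHDF readers the differences were smaller. Ythdf3 was higher in the m6A library in 12 of 13 mice, with a ratio of 0.827 in PBS mouse 4 and values above 1 in the others, up to 1.92 in KA mouse 8. Its log2 fold change was 0.28 ± 0.09 (edgeR adjusted P = 0.0418), and it passed in only 3 of the 13 fits that left out a mouse, those without KA mouse 67, KA mouse 98 and PBS mouse 4. Ythdf2 was also higher in 12 of 13 mice, with a log2 fold change of 0.26 ± 0.11 that did not pass (edgeR adjusted P = 0.0924), although it passed at 0.35 without PBS mouse 4. Ythdf1 was higher in 11 of 13 mice (0.17 ± 0.10, edgeR adjusted P = 0.253). Its widest ratios, 2.20 and 1.80, came from PBS mice 4 and 3. Scaling by library size instead of TMM raised all these values, as it moved the median of all genes tested from -0.03 to 0.16 and the share of passing genes that were higher in m6A from 55.6% to 91.1%. Under it Ythdf1 (0.37) and Ythdf2 (0.47) also passed, which made 6 readers higher and 2 lower, against 23.2% and 2.28% of genes.

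Ythdc2, the helicase reader, was close to equal in the libraries of a mouse, with m6A over input between 0.699 and 1.43. It was higher in 6 mice and lower in 7, and its log2 fold change was -0.20 ± 0.09 with TMM (edgeR adjusted P = 0.133) and 0.01 with library-size scaling. Leaving out KA mouse 6 gave -0.25 with an adjusted P of 0.0274 (edgeR). Igf2bp1 was counted too rarely to be placed, with 12 mice giving a ratio, 7 above and 5 below 1, and a log2 fold change of -0.34 ± 0.27 (edgeR adjusted P = 0.435).

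**Figure D2:**
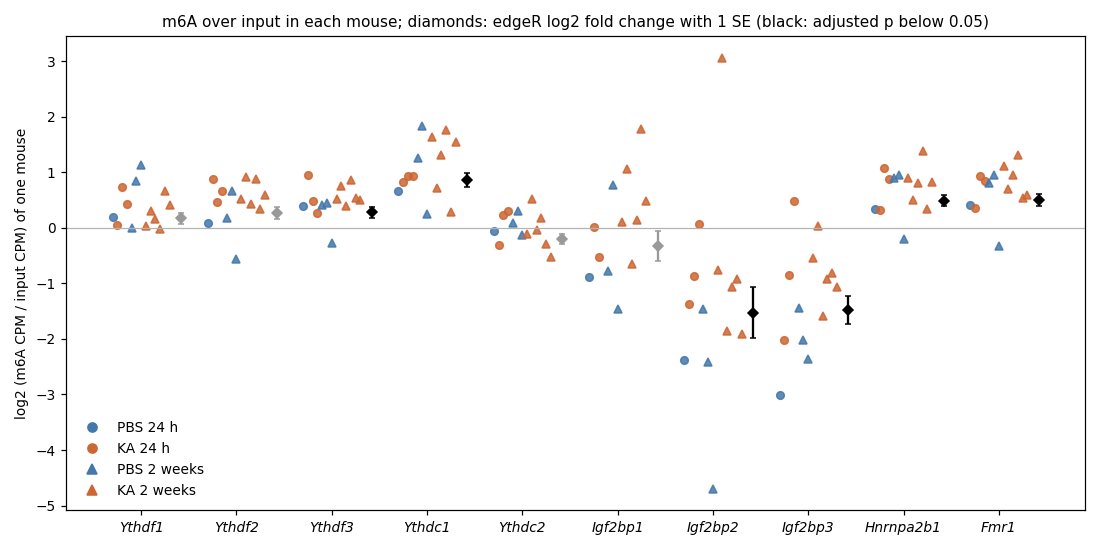
Log2 ratio of m6A CPM to input CPM in each of 13 mice (coloured points, by treatment and time) for each reader, with the edgeR log2 fold change and 1 SE (diamonds, black where the adjusted P was below 0.05). Ythdc1 lay above 0 in 13 mice, whereas Igf2bp2 and Igf2bp3 lay below 0 in 11 of 13, with KA mouse 6 at 3.06 for Igf2bp2.

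Igf2bp2 and Igf2bp3 were the readers that took a smaller share of the m6A libraries. Input Igf2bp2 was 62.0 CPM in the PBS mouse and 33.3, 15.1 and 55.4 CPM in KA mice at 24 hours. At 2 weeks it was 34.4, 49.0 and 39.3 CPM in PBS mice and 10.7 to 38.2 CPM (median 24.4) in KA mice. In m6A libraries Igf2bp2 lay between 1.52 and 21.4 CPM in 18 of 19 and at 89.5 CPM in KA mouse 6. The m6A level was below the input level in 11 of 13 mice, down to a ratio of 0.0386 in PBS mouse 4, and above it in KA mouse 98 (1.04) and KA mouse 6 (8.34). The log2 fold change was -1.53 ± 0.46 (edgeR adjusted P = 0.0333), at the 0.958th percentile of genes tested. Leaving out 1 mouse gave -1.34 to -1.81, and the call was lost in 7 of the 13 such fits, with an adjusted P of 0.0511 to 0.0673 (edgeR) without PBS mouse 2, PBS mouse 3 or KA mouse 5, 7, 9, 42 or 67. Without mice 8, 6 and 4, whose m6A libraries stood apart, it was -1.70 (edgeR adjusted P = 6.67e-05). Those mice were chosen after seeing the data, and 5177 of 16961 genes passed in that fit.

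Igf2bp3 gave the same direction with less spread. Its input levels were 70.1 CPM in the PBS mouse and 53.1, 20.7 and 71.2 CPM in KA mice at 24 hours, and 39.3, 63.6 and 52.8 CPM in PBS and 16.5 to 51.4 CPM (median 23.1) in KA mice at 2 weeks. The m6A libraries held 5.95 to 29.3 CPM. The ratio ran from 0.124 in PBS mouse 1 to 1.40 in KA mouse 98, with 11 of 13 mice below 1 and KA mouse 6 at 1.02. The log2 fold change was -1.48 ± 0.25 (edgeR adjusted P = 0.000889), at the 1.06th percentile.

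Marker genes of endothelial cells were set beside these values. None of 5 endothelial markers was at 0 in any group. Pecam1, which encodes a junctional adhesion protein of endothelium, was also lower in m6A than in input in 11 of 13 mice, and the same mice as for Igf2bp2, KA mice 98 and 6, were the exceptions (log2 fold change -1.71 ± 0.33, edgeR adjusted P = 0.00327). Cldn5, Cdh5, Flt1 and Tek did not pass (log2 fold change -0.32 to 0.18), and their sum was higher in the m6A library in 10 of 13 mice, with a median ratio of 1.16. The full list of 5 summed to 126 to 880 CPM in m6A and 427 to 1203 CPM in input libraries, of which Pecam1 contributed 80.4 to 851 and 338 to 1163 CPM. The part of endothelial cells in the Igf2bp2 values was not tested.

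**Figure D3:**
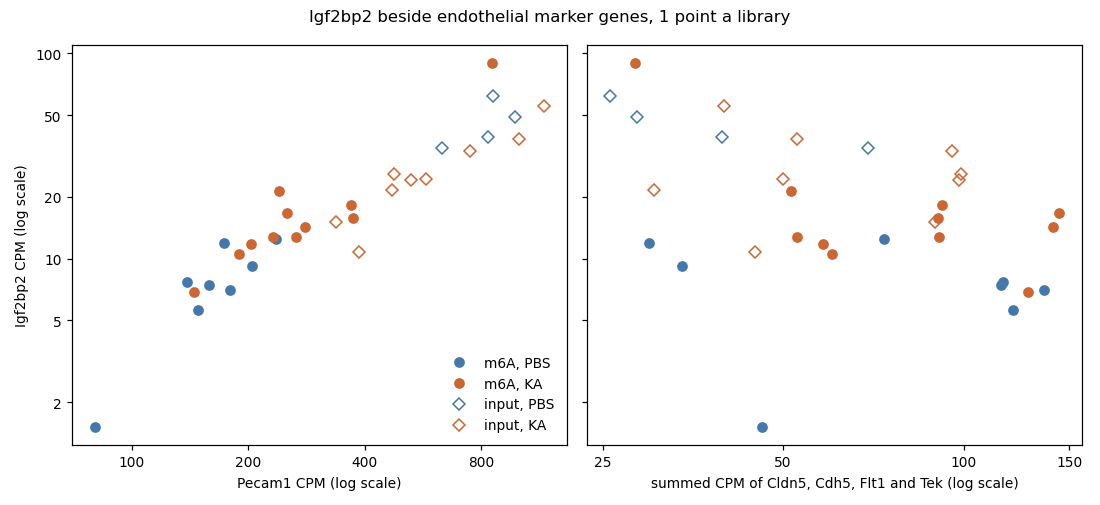
Igf2bp2 level against Pecam1 (left) and against the summed Cldn5, Cdh5, Flt1 and Tek (right), all in CPM on log axes, with 1 point for each library. Among m6A libraries Igf2bp2 and Pecam1 were both lowest in PBS mouse 4 (1.52 and 80.4 CPM) and both highest in KA mouse 6 (89.5 and 851 CPM), whereas the other 4 markers had their lowest sum in KA mouse 6.

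The next comparison asked whether reader transcripts differed between KA and PBS mice in the m6A libraries 24 hours after injection. No reader passed, with 0 of 10 called by edgeR against 0.00607% of the 16470 genes tested, and 0 of 10 by DESeq2. At an unadjusted P below 0.05 there were 2 readers, Igf2bp2 and Igf2bp3, where 5.31% of genes met that limit. Median log2 fold changes were 0.02 over the readers and 0.08 over all genes. The YTH genes, Hnrnpa2b1 and Fmr1 had log2 fold changes of -0.26 to 0.23 with SEs of 0.24 to 0.39. Such SEs leave shifts of that size undetectable in these groups.

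Igf2bp2 was the reader whose acute groups did not overlap. Its m6A levels were 7.42, 5.65 and 11.9 CPM in PBS mice and 18.2, 15.7, 14.3, 16.8 and 21.4 CPM in KA mice. Every KA library was above every PBS library. Full separation of KA and PBS, in either direction, was seen in 3.57% of 16826 genes. The log2 fold change was 1.09 ± 0.36 (edgeR adjusted P = 0.620), and it was 0.86 to 1.43 when 1 library was left out. The column names of the m6A libraries carry the prefix 3, 4 or 5, whose meaning is not stated, and prefix 4 is the one that holds both treatments at 24 hours. Within it Igf2bp2 was 14.3 and 16.8 CPM in KA mice and 7.42 and 5.65 CPM in PBS mice, with a log2 fold change of 1.13 ± 0.20 (edgeR adjusted P = 0.0444), where 2.11% of 16903 genes passed. This fit rests on 2 mice a group and was chosen after seeing the data. With all 8 libraries and prefix as a block the value was 1.13 ± 0.36 (edgeR adjusted P = 0.840), and with all 4 m6A groups in the fit 1.09 ± 0.76 (edgeR adjusted P = 0.824), so that neither passed. Pecam1 was 241 to 373 CPM in KA and 148 to 173 CPM in PBS libraries at 24 hours (log2 fold change 0.90, edgeR adjusted P = 0.519), and the other 4 endothelial genes summed to 51.6 to 144 and 29.9 to 121 CPM. Their part in the Igf2bp2 difference was not tested.

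For Igf2bp3 the acute values followed the library prefix. PBS mice held 10.4, 8.73 and 8.71 CPM, and KA mice 29.3, 29.0 and 17.7 CPM with prefix 3 and 9.28 and 11.2 CPM with prefix 4. The log2 fold change of 1.02 ± 0.43 (edgeR adjusted P = 0.880) became -0.02 with prefix as a block and -0.01 within prefix 4. All prefix 3 libraries are from KA mice, so that prefix and treatment cannot be told apart for them. Igf2bp1 was at 6.31 CPM in KA mouse 8, at 0.371 to 1.16 CPM in KA mice 67, 97 and 79, and at 0.609 to 1.33 CPM in PBS mice. KA mouse 98 had no Igf2bp1 count, which allows a level of up to 1.81 CPM at that library's depth.

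In the m6A libraries at 2 weeks, the chronic stage, again no reader passed. Of the 10 tested, 0 were called by edgeR against 0% of 16157 genes, and 0 by DESeq2, which gave no P for Igf2bp2. Readers at an unadjusted P below 0.05 were Igf2bp2 and Igf2bp1, against 5.01% of genes. Igf2bp2 was 7.02, 7.70, 12.5, 9.22 and 1.52 CPM in PBS mice, and 6.89 to 89.5 CPM (median 12.2) in KA mice. The groups overlapped, and 1 KA library lay above and 1 PBS library below the rest. The log2 fold change was 1.85 ± 0.72 (edgeR adjusted P = 0.875), and 0.53 without KA mouse 6. Without KA mouse 6 and PBS mouse 4, a choice made after seeing the data, it was 0.29 ± 0.24. In KA mouse 6 Pecam1 was also the highest of the m6A libraries, at 851 CPM, whereas the other 4 endothelial genes had their lowest sum, 28.3 CPM. Igf2bp1 stayed between 0.489 and 0.877 CPM in PBS and 0.693 and 2.08 CPM in KA mice (log2 fold change 0.92 ± 0.41, edgeR adjusted P = 0.875; 0.55 without KA mouse 6).

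None of the readers separated KA from PBS fully at 2 weeks in the m6A libraries, where 0.607% of 16468 genes did. Among the YTH genes, Ythdf1 had the lowest value, -0.41 ± 0.22 (edgeR adjusted P = 0.875). PBS mice held 41.0, 35.5, 25.6, 28.8 and 56.1 CPM of Ythdf1 and KA mice 23.0 to 31.0 CPM (median 26.0), so that the groups overlapped. Ythdf2, Ythdf3, Ythdc1, Ythdc2, Hnrnpa2b1 and Fmr1 lay between 0.03 and 0.29. Median log2 fold changes were 0.18 over the readers and -0.00 over all genes.

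**Figure D4:**
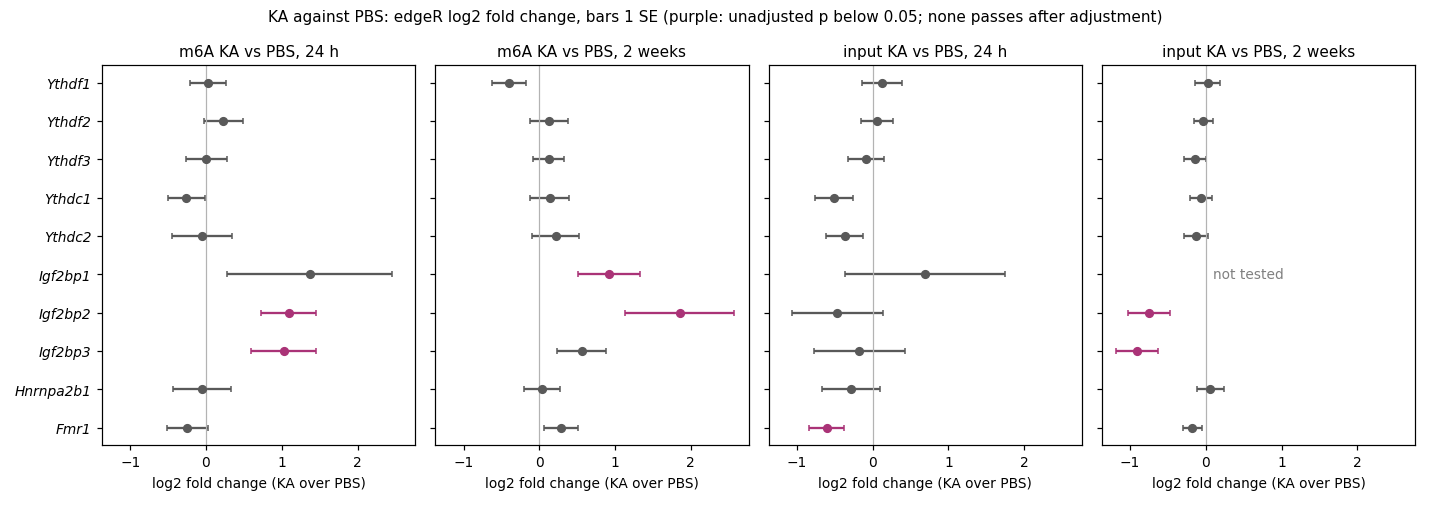
Log2 fold change of KA over PBS with 1 SE (edgeR) for each reader, in m6A and input libraries at 24 hours and 2 weeks. Purple marks an unadjusted P below 0.05; after adjustment over all genes no reader passed in any of the 4 panels.

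In input RNA the same comparison concerned transcript level alone. At 24 hours there was 1 PBS input, mouse 1, so its spread was taken to be that of the other input groups. Of the 10 readers 0 were called by edgeR, against 0% of 17644 genes, and 0 by DESeq2. Fmr1 alone had an unadjusted P below 0.05, against 9.23% of genes. It was 139 CPM in the PBS mouse and 85.7, 87.8 and 51.1 CPM in KA mice (log2 fold change -0.61 ± 0.23, edgeR adjusted P = 0.453). Ythdc1 had the next smallest P, with 258 CPM against 171, 161 and 112 CPM (-0.51 ± 0.25, edgeR adjusted P = 0.568). All 3 KA inputs were below the lone control for 6 of 10 readers and above it for 0, where 47.2% of 15948 genes lay wholly above or below it. TMM scaling set the median of all genes at 0.27 in this comparison and library-size scaling at -0.04, and the readers had a median of -0.23 under TMM.

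At 2 weeks, with 3 PBS and 6 KA inputs, 0 of 9 readers tested were called by edgeR, against 0% of 13752 genes, and 0 by DESeq2. Igf2bp1 was below the filter on low counts, at 0.285 to 2.10 CPM in PBS and 0.244 to 1.53 CPM in KA mice. Unadjusted P was below 0.05 for Igf2bp3 and Igf2bp2, against 14.1% of genes. For Igf2bp3 the 39.3, 63.6 and 52.8 CPM of PBS mice stood above 5 of 6 KA mice, whose highest, mouse 7, was at 51.4 CPM (log2 fold change -0.91 ± 0.28, edgeR adjusted P = 0.266). For Igf2bp2 the values were also lower in 5 of 6 KA mice than in any PBS mouse (-0.75 ± 0.27, edgeR adjusted P = 0.292), and KA mouse 7 again overlapped at 38.2 CPM. Neither passed when any single library was left out. Column names of the inputs of KA mice 6, 7 and 9 (and 8 at 24 hours) begin with Input. The other inputs used, with every PBS input, have no prefix. Without prefix at 2 weeks, Igf2bp3 was 16.5 to 28.5 CPM in KA and 39.3 to 63.6 CPM in PBS mice. Igf2bp2 was 21.6 to 25.9 and 34.4 to 49.0 CPM there. A fit within these, chosen after seeing the data, called 0 of 9 readers and 0 of 12971 genes. Input Pecam1 was 634 to 973 CPM in PBS and 387 to 1002 CPM in KA mice (-0.51 ± 0.24, edgeR adjusted P = 0.365). The other 4 endothelial genes, Cldn5, Cdh5, Flt1 and Tek, went the other way, with log2 fold changes of 0.29 to 1.32, and did not pass. The 5 astrocyte markers, none at 0, summed to 611 to 965 CPM in PBS and 1127 to 3273 CPM in KA inputs, without overlap. Ribosomal and mitochondrial genes made up 3.44% to 5.29% of counts in PBS and 1.41% to 6.28% in KA inputs, with the highest share in KA mouse 7. The part of endothelial cells, astrocytes or this share here was not tested. The other 7 readers had log2 fold changes of -0.18 to 0.06, with SEs of 0.12 to 0.18. Full separation of the groups occurred in 6.4% of 13710 genes and in none of the readers among them.

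A treatment-by-assay interaction then tested whether KA shifted the m6A over input ratio itself. At 24 hours 0 of 10 readers passed (edgeR), against 0.00486% of 20567 genes, and 1 had an unadjusted P below 0.05, against 1.28%. That reader was Igf2bp3, whose ratio was 0.124 in the PBS mouse and 0.248, 0.552 and 1.40 in KA mice (log2 difference 1.84 ± 0.71, edgeR adjusted P = 1). This contrast has 1 control mouse, whose m6A library has prefix 5, whereas those of the KA mice all have prefix 3. Prefix and treatment therefore cannot be told apart in it. The ratios of 0.552 and 1.40 rest on 58 and 48 Igf2bp3 counts in the m6A libraries of KA mice 67 and 98. At 2 weeks 0 of 10 passed (edgeR), against 0.00486% of genes, and 2 had an unadjusted P below 0.05, against 4.21%. Igf2bp3 was at 0.368, 0.246 and 0.196 in PBS mice and at 0.331 to 1.02 in KA mice, 5 of 6 of them above every PBS mouse (1.17 ± 0.43, edgeR adjusted P = 0.952). Ythdf2 was at 1.13, 1.59 and 0.680 in PBS mice and 1.26 to 1.88 in KA mice (0.57 ± 0.27, edgeR adjusted P = 0.952). DESeq2 called 0 readers at either time.

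Whether the KA difference in m6A libraries itself changed between 24 hours and 2 weeks was tested directly. By edgeR 0 of 10 readers passed, and 0 had an unadjusted P below 0.05, against 0.00573% of 17440 genes adjusted and 2.45% unadjusted. DESeq2 gave a P for 9 readers and called 0. The log2 differences ran from -0.46 for Igf2bp1 to 0.79 for Igf2bp2, with SEs of 0.32 to 1.07. Both ends turned with 1 library, to 1.30 for Igf2bp1 without KA mouse 8 and to -0.51 for Igf2bp2 without KA mouse 6.

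Levels in the m6A libraries were also set out by library prefix. Ythdc2 was 21.0 to 25.7 CPM in the 6 m6A libraries with prefix 4 and 43.2 to 65.7 CPM in the 7 with prefix 5, and 26.9 to 58.4 CPM in the 6 with prefix 3. Ythdf2 went the other way, at 53.5 to 80.3 CPM with prefix 4 and 21.3 to 53.4 CPM with prefix 5. These were the 2 of 10 readers without overlap between prefixes 4 and 5, where 22.1% of 16334 genes had none. Igf2bp3 averaged 21.2 ± 8.06 CPM (SD, n = 6) with prefix 3, 9.18 ± 1.81 (n = 6) with prefix 4 and 12.95 ± 2.97 (n = 7) with prefix 5. Within prefix 5, which holds 3 PBS and 3 KA mice at 2 weeks, the Igf2bp2 log2 fold change was 0.65 ± 0.55 (edgeR adjusted P = 0.956). The prefixes hold unequal sets of groups, so the values by prefix are given without a test.

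**Figure D5:**
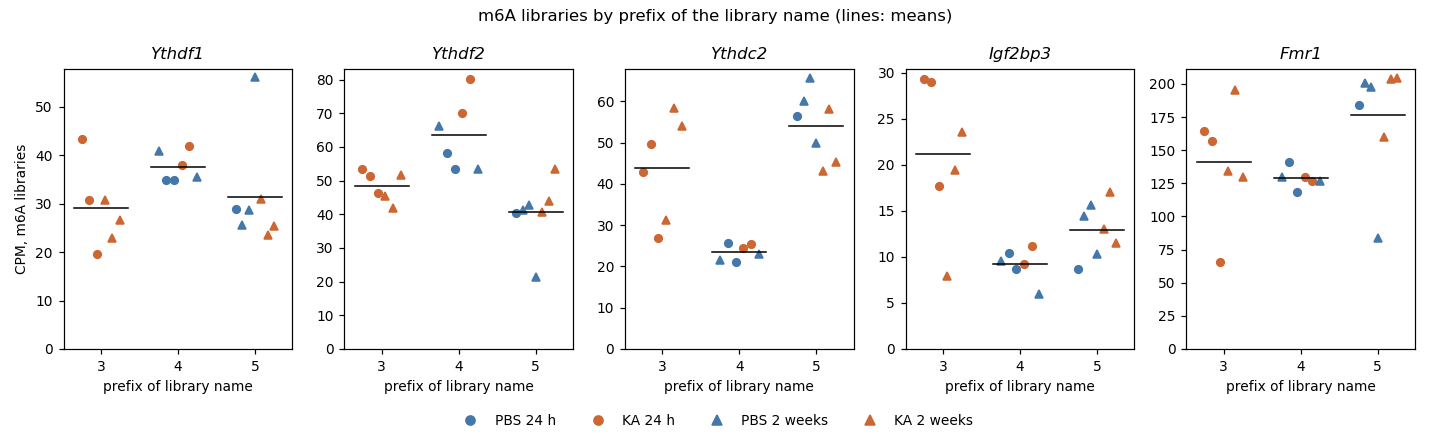
Level in CPM of readers in the 19 m6A libraries by the prefix of the library's column name, coloured by treatment and shaped by time; lines are means. Ythdc2 libraries with prefix 4 (21.0 to 25.7 CPM) and prefix 5 (43.2 to 65.7 CPM) do not overlap, as in 22.1% of genes, and both prefixes hold KA and PBS mice.

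Readers work with the enzymes that place and remove the mark, so the other genes of the pathway were counted in the same fits: 11 writers, 2 erasers and 17 further readers and partners. None of these 30 was called by edgeR in any KA comparison, with at most 3 at an unadjusted P below 0.05, in the input at 2 weeks, where 14.1% of all genes met that limit. DESeq2 called 1 in that comparison, against 116 of 13751 genes, namely Wtap, the adaptor subunit of the writer complex, whose edgeR log2 fold change was -0.73, and 0 in the other KA comparisons. In m6A against input 11 of 30 passed, 4 higher and 7 lower, against 19.9% of all genes, 11% higher and 8.83% lower. With library-size scaling 15 passed, 13 higher and 2 lower, against 23.2% and 2.28% of genes. The 4 with the smallest P were Alkbh5, the nuclear demethylase, at -0.64 (edgeR adjusted P = 2.80e-05), Eif3a, a translation initiation factor subunit, at 0.79, Abcf1, also of the translation machinery, at 0.74, and Zc3h13, a writer complex subunit, at 0.66. Both erasers were lower in the m6A libraries, and of the 11 writers 2 were higher and 1 was lower.

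For each reader, the gene with the most similar profile over the 19 m6A libraries was taken from at least 11508 candidates, as Pearson's r of log2 CPM. The libraries share prefix, depth and the 3 that stand apart, so r is only a description. The highest value was that of Ythdc2 with Ipo11 (r = 0.984, and 0.980 without the 2 libraries farthest from the median). Ythdf3 was most like D130040H23Rik (0.956), Igf2bp2 most like Pecam1 (0.947, and 0.832 without the 2 farthest), Fmr1 most like Hnrnph1 (0.938), Ythdc1 most like Hmgn5 (0.938) and Igf2bp3 most like Raph1 (0.930). Hnrnpa2b1 paired with Ddx46 at 0.921, which dropped to 0.637 without KA mouse 8 and PBS mouse 4. Ythdf2 and Ythdf1 were nearest to Dnaaf2 (0.918) and Rnf26 (0.916). Among the readers themselves the closest were Ythdc1 and Fmr1 (0.754), Ythdf2 and Ythdf3 (0.633) and Igf2bp2 and Igf2bp3 (0.598), whereas Ythdf1 reached at most 0.104 with any other reader.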

How the data were processed

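Counts per gene were deposited by the authors for each of 4 sequencing lanes of a library, as raw whole-number counts that had not been normalised. The build was mm10 per the submitters' processing notes, with the aligner, the counting tool, its strand setting and its handling of reads that match several places not given in the sources used here. The 4 lanes were summed. The labels name the library type of every library, whereas the column names do so for 8 only. The other columns were matched to the labels by mouse, with prefix 3, 4 or 5 taken as m6A and no prefix as input. A further 8 columns matched no labelled library and were not used. Input libraries needed 100000 counts. Members and lists were chosen with earlier results of these data known, and the genes named are all 10 readers, at most 4 called pathway genes per comparison by smallest P, and the gene most like each reader.

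Fits used edgeR 4.0.16 (quasi-likelihood, TMM, filterByExpr) in R 4.3.3 with limma 3.58.1, on all genes, with Benjamini-Hochberg adjustment and a threshold of 0.05. DESeq2 1.42.0, other scalings, filters and sample sets were alternatives. TMM factors computed over unfiltered genes, separately for the m6A and the input libraries, ranged from 0.854 to 1.14. Each fit computed its own factors after filtering. CPM and ratios in the text use library totals, so CPM folds differ from fitted ones. For m6A over input the median log2 fold change of all genes was 0.16 with library totals and -0.03 with TMM. The counts of mice with m6A above input rest on library totals. Tables and plots used Python 3.11.15, pandas 2.3.3, numpy 2.4.6 and matplotlib 3.10.9, and the fits were tested on simulated data. The m6A and input libraries of 1 mouse were paired by the mouse number in the labels. Deviations from group means correlated between them with a median of 0.512 (0.0685 to 0.866) in 12 mice, over 0.1 in 11. In 8 of the 12 the m6A library correlated best with the input of its own mouse. In PBS mouse 4 and KA mice 6, 9 and 21 it correlated better with the input of another mouse. The labels number mice but do not describe separate preparations, so P values measure the spread between these samples. A floor of 3 counts covers counting error only. Transcript lengths and sequence are from GENCODE vM39, another build than the files', so only transcript positions are given, and the positions of genes are those of mm10.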

Additional observations from a re-analysis of the deposited data

Results flagged for a closer look

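Of 40 combinations of reader and group with 4 to 10 libraries, 5 held a library whose gap to the next one was large for the group's range, where chance gives about 1 in 20, or 2. Igf2bp2 in the m6A library of KA mouse 6 at 2 weeks was 89.5 CPM, against 12.7 CPM in the next library of its group. Igf2bp1 in the m6A library of KA mouse 8 at 24 hours was 6.31 CPM, against 1.16 CPM in the next. Hnrnpa2b1 in that same library was 170.05 CPM, the lowest of its group, against 626 CPM in the next. In input RNA at 2 weeks Igf2bp3 was 51.4 CPM in KA mouse 7, against 28.5 CPM in the next, and Hnrnpa2b1 was 503 CPM in KA mouse 21, against 364 CPM in the next.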

How the results depend on the processing

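The 18 reader fold changes with an unadjusted P below 0.05 were refitted 306 times, and 277 refits kept their direction and their side of the threshold, 19 lost a call, 7 gained one and 3 reversed. Those 3 were Igf2bp3 in m6A at 24 hours (-0.0159 with prefix as a block, -0.0131 within prefix 4) and Ythdc2 in m6A over input (0.00769 with library-size scaling). The other 61 reader fold changes changed sign in 87 of 995 refits, and in 81 of those the reported value was below 0.3 in size. The remaining 6 were Igf2bp1 at 24 hours and both Igf2bp1 and Igf2bp2 in the time interaction, 5 of them without KA mouse 8 or 6. Within prefix 4, chosen after seeing the data, 1 reader was called at 24 hours. Leaving out 1 library gave 0 called readers in every KA comparison and 4 to 7 of 10 in m6A over input. The mouse number pairs the libraries of 1 animal. Without that replicate block 1937 genes passed in m6A over input, 0 in each treatment-by-assay contrast, and Ythdf3 (adjusted P = 0.0948) and Igf2bp2 (0.161) lost their calls. No other reader's call changed without the block.

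Counts of called genes over all those tested moved more. In m6A at 24 hours they were 3 with library-size scaling, 22 with no filter, 156 with DESeq2, 0 with prefix as a block, 31 with all 4 groups, 356 within prefix 4, and 0 to 45 leaving out 1 library (45 without KA mouse 8, 0 without PBS mouse 71 or 73). In m6A at 2 weeks they were 2 with no filter, 15 with DESeq2, 1 with all 4 groups and 0 to 1 leaving out 1 library (1 without PBS mouse 78 or KA mouse 7). In input at 24 hours they were 1 with library-size scaling, 3 with no filter, 176 with DESeq2, 2 with prefix as a block, 8 with all inputs and 1 to 180 leaving out 1 library (180 without KA mouse 8). In input at 2 weeks they were 4 with no filter, 116 with DESeq2 and 0 to 1 leaving out 1 library. In m6A over input they were 3102 to 4551 leaving out 1 mouse. The treatment-by-assay contrast at 24 hours gave 0 with library-size scaling, 2 with no filter and 0 to 2 leaving out 1 mouse, and that at 2 weeks 0 to 2. The time interaction gave 5 with DESeq2, 2 with prefix as a block and 1 leaving out any library. The causes were not tested. PBS mouse 1 could not be left out of the 24-hour input comparison or interaction, where it is the one control. Low counts limit Igf2bp1 in all libraries.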
